A study of Mus musculus with 12 samples.

Results

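The mouse genes of the RNase H enzymes are described here: Rnaseh1, and Rnaseh2a, Rnaseh2b and Rnaseh2c, the 3 subunits of RNase H2. They were chosen by symbol, with earlier results of these data known, and are 4 of the 23235 genes in the deposited expression table. All 4 were among the 15400 genes kept for testing, whose level reached 1 in 3 or more of the 12 libraries. RNA was measured in spermatocytes of C57BL/6 mice that were sorted by fluorescence with a check of purity. There were 4 groups of 3 libraries: pachytene cells with the genotype label Rnaseh1 knock-out (KO-labelled), wild-type (WT) pachytene cells, KO-labelled leptotene/zygotene (LZ) cells and WT LZ cells. Leptotene and zygotene are the first stages of meiotic prophase, in which DNA breaks form and homologous chromosomes start to pair, and pachytene is the later stage of full pairing. The part of Rnaseh1 that was deleted, any Cre driver, the age of the mice and whether the replicates came from separate animals are not given in the sources used here. All p-values thus measure the spread between these libraries, which may be technical.

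RNase H enzymes cut the RNA strand of RNA:DNA hybrids. RNase H1 is a monomer that works in the nucleus and in mitochondria and needs a run of ribonucleotides to cut. RNase H2 is a nuclear complex of a catalytic subunit, RNASEH2A, with RNASEH2B and RNASEH2C, and it also cuts at a lone ribonucleotide that a DNA polymerase has built into DNA, which starts ribonucleotide excision repair. RNASEH2B carries the motif that binds PCNA, the sliding clamp of DNA polymerases, and the complex does not form as a stable enzyme without its auxiliary subunits. Inherited defects of each RNase H2 subunit cause Aicardi-Goutieres syndrome in humans, an inflammatory disease of the brain. Both enzymes act on R-loops, in which a nascent RNA pairs with one DNA strand, and these also occur in meiotic cells.

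The annotated sequence before the start of transcription was available for Rnaseh2a and Rnaseh2c, which had the largest stage differences of the 4 members with spike-in scaling but not with the other scalings tried. It is shown so that the start regions of these genes can be compared. The 250 bases upstream are from RefSeq, build GRCm38.p6, at chr8:84966077-84966326 on the minus strand for Rnaseh2a and chr19:5601623-5601872 on the plus strand for Rnaseh2c. The RefSeq start of Rnaseh2a lies 3691 bases inside the gene as GENCODE draws it, so for this gene the annotations place the outermost start differently. They are written 5′ to 3′ in the direction of the gene, with matches to a CCAAT box (CCAAT) or a GC box (GGGCGG) on either strand in capitals.
Rnaseh2a: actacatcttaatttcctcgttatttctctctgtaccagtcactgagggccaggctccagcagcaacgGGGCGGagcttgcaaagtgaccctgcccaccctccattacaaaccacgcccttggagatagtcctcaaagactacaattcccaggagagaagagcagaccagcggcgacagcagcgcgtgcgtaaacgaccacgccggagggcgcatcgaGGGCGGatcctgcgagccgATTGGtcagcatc
Rnaseh2c: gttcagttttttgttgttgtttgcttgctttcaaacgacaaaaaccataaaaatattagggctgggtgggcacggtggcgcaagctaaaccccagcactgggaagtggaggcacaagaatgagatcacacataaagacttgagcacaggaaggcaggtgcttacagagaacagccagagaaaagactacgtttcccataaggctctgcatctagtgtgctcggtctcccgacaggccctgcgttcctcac
The Rnaseh2a sequence holds 1 CCAAT box, read as ATTGG on this strand at positions -13 to -9 from the start, and 2 GC boxes at -182 to -177 and at -32 to -27. The Rnaseh2c sequence holds 0 matches to either. Among 27025 promoters of the same length, 34.5% hold a CCAAT box and 32.9% a GC box, each on either strand. Neither sequence holds a TATA box (TATAAA, in 13% of promoters) or an E2F sequence (TTTCGCGC, TTTCCCGC, TTTGGCGC or TTTGCCGC, in 1.91%). The short core AACNG, bound by MYB proteins, occurs 1 time for Rnaseh2a, where its last base is also the first base of a GC box, and 2 times for Rnaseh2c. This core is in 74.1% of all promoters. The matches describe letters only.

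The deposited values are FPKM (fragments per kilobase of exon, corrected for sequencing yield), which the table's name says were normalised with ERCC spike-ins, RNA added in known amounts, so they follow the RNA of a gene relative to added RNA and can be compared between genes. In these bulk samples, fewer cells of a type and less RNA per cell cannot be told apart. The summed FPKM was 4811570 to 6702160 in KO-labelled pachytene, 3319970 to 4183730 in WT pachytene, 430372 to 512468 in KO-labelled LZ and 609831 to 885259 in WT LZ libraries. Most genes therefore move together with the total, and each change of a member is set beside the median change of all genes. Ratios between members within a library and percentiles among the 15400 tested genes of a library do not depend on the scaling. The depth of the libraries is unknown. Log2 values correlated across genes at 0.923 to 0.952 within the KO-labelled LZ group, against 0.967 to 0.975 within the other 3 groups. The single markers Dmc1 and Piwil1 followed the stage labels in FPKM. Dmc1, the meiotic recombinase, was at 3.45 to 10.8 FPKM in KO-labelled pachytene and 15.9 to 23.3 in WT pachytene libraries. It was at 36.3 to 46.4 in KO-labelled LZ and 48.2 to 67.0 in WT LZ libraries. Piwil1, a piRNA pathway protein of pachytene cells, was at 1420 to 1443 FPKM in KO-labelled pachytene and 605 to 924 in WT pachytene libraries. It was at 22.7 to 31.6 in KO-labelled LZ and 16.3 to 27.7 in WT LZ libraries. The 12 markers of round spermatids, the haploid cells after meiosis, made up 0.0322% to 0.205% of the summed FPKM in KO-labelled pachytene, 0.908% to 1.36% in WT pachytene, 0.171% to 1.33% in KO-labelled LZ and 2.13% to 3.65% in WT LZ libraries, with 0 of the 12 at 0 in any group. This share differed between genotypes at both stages without overlap, and its part in the results below was not tested. The other marker lists gave these shares of the summed FPKM. Leptotene/zygotene markers (11 of 12 found) made up 0.0656% to 0.0888% in KO-labelled pachytene, 0.0851% to 0.0998% in WT pachytene, 0.211% to 0.245% in KO-labelled LZ and 0.189% to 0.218% in WT LZ libraries. In spike-in-scaled FPKM their sum went the other way and was higher at pachytene. It was 4271 to 4398 in KO-labelled pachytene and 3150 to 4175 in WT pachytene libraries. At LZ it was 908 to 1245 in KO-labelled and 1327 to 1675 in WT libraries. Pachytene markers (12 found) made up 1.15% to 1.31%, 0.815% to 0.974%, 0.328% to 0.453% and 0.404% to 0.504% of KO-labelled pachytene, WT pachytene, KO-labelled LZ and WT LZ libraries. Markers of somatic cells moved with the groups too. Leydig markers (8 found) summed to 1372 to 5517 FPKM in KO-labelled pachytene, 2343 to 8741 in WT pachytene, 3.38 to 89.2 in KO-labelled LZ and 3.74 to 17.1 in WT LZ libraries, or 0.0285% to 0.0907%, 0.0706% to 0.215%, 0.000708% to 0.0207% and 0.000614% to 0.00213% of the summed FPKM of these groups. Insl3, a Leydig cell hormone, made up most of this, at 828 to 4710 FPKM in KO-labelled and 2055 to 8196 in WT pachytene libraries, and Lhcgr and Hsd17b3 were at 0 in WT LZ libraries. Sertoli markers (10 of 11 found) were at 0.0104% to 0.0132% in KO-labelled pachytene, 0.0221% to 0.0347% in WT pachytene, 0.0784% to 0.169% in KO-labelled LZ and 0.0443% to 0.0719% in WT LZ libraries, with 0 of them at 0 in any group and Amh under 1 FPKM in every group. Peritubular and endothelial markers (8) were at 0.00314% to 0.00483% in KO-labelled pachytene, 0.0168% to 0.0178% in WT pachytene, 0.000582% to 0.00457% in KO-labelled LZ and 0.00035% to 0.00389% in WT LZ libraries, with Pecam1 at 0 in WT LZ. Blood and macrophage markers (10) were at 0.00459% to 0.00799% in KO-labelled pachytene, 0.00311% to 0.0146% in WT pachytene, 0.000823% to 0.00179% in KO-labelled LZ and 0.00109% to 0.00296% in WT LZ libraries, with Hbb-b1 and Hba-a1 at 0 in WT pachytene, C1qa in KO-labelled LZ and Hbb-b1 in WT LZ. The Leydig share and the blood and macrophage share separated the stages, both higher at pachytene. The Sertoli share separated the stages too, lower at pachytene. It also separated the genotypes at both stages, higher in KO-labelled LZ and lower in KO-labelled pachytene cells. The peritubular and endothelial share was higher in WT pachytene than in any other group without overlap. The part of these cells in the results was not tested.

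Rnaseh1, the gene named in the knock-out label, was measured in every library of both genotypes. At pachytene it was at 77.3, 68.9 and 94.3 FPKM in KO-labelled libraries, against 52.7, 51.7 and 56.8 FPKM in WT libraries, so all 3 KO-labelled values were the higher ones, as for 36.4% of the tested genes. At LZ it was at 11.0, 18.3 and 14.8 FPKM in KO-labelled libraries, against 16.1, 20.5 and 16.8 FPKM in WT libraries, and these values overlapped. The log2 change between genotypes was 0.56 ± 0.23 (SE) at pachytene (limma, adjusted p = 0.0638) and -0.28 ± 0.23 at LZ (limma, adjusted p = 0.407). Neither passed the threshold of 0.05, and both lay near the median change of all genes, which was 0.37 at pachytene and -0.43 at LZ. In position among the tested genes, Rnaseh1 stood at percentiles 63.6 to 70.3 in KO-labelled pachytene, 61.8 to 64.1 in WT pachytene, 68.0 to 78.1 in KO-labelled LZ and 63.5 to 70.9 in WT LZ libraries. The summed level of the gene thus gave no check of the label. A value per gene can also count RNA outside a deleted part, and which part was deleted is not given. Why Rnaseh1 was not called lower was not tested, and the cells are called KO-labelled throughout.

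Rnaseh2a, the catalytic subunit, had the highest level of the 4 genes in 11 of 12 libraries and the widest range. It was at 2165, 1764 and 989 FPKM in KO-labelled pachytene libraries, against 758, 793 and 1022 FPKM in WT pachytene libraries, where the third KO-labelled library lay inside the WT range. It was at 71.0, 58.3 and 41.4 FPKM in KO-labelled LZ libraries, against 177, 184 and 131 FPKM in WT LZ libraries, with no overlap. Of all tested genes 36.5% were lower without overlap in KO-labelled LZ libraries. By percentile it stood at 94.1 to 96.0 in KO-labelled pachytene, 94.0 to 94.8 in WT pachytene and 94.0 to 94.5 in WT LZ libraries, but at 92.8, 91.1 and 86.9 in the 3 KO-labelled LZ libraries. The KO-labelled LZ libraries were thus below the 9 others in that position. How many other genes separate in this way by percentile was not counted.

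Rnaseh2c, an auxiliary subunit with no catalytic site of its own, was at 635, 487 and 393 FPKM in KO-labelled pachytene libraries, against 264, 496 and 402 FPKM in WT pachytene libraries, and these overlapped. At LZ it was at 29.6, 40.2 and 37.1 FPKM in KO-labelled libraries, against 80.8, 83.8 and 49.1 FPKM in WT libraries. These did not overlap, and 36.5% of tested genes were lower without overlap in this comparison. All 6 pachytene values were above all 6 LZ values, where 75.9% of tested genes were higher without overlap in KO-labelled and 83% in WT cells, and its percentile among the tested genes ran from 84.4 to 91.3 over all 12 libraries.

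Rnaseh2b, the subunit with the PCNA-binding motif, had the smallest stage difference of the 4 members in spike-in-scaled FPKM and the largest under the 3 other scalings, described with the stages below. It was at 52.7, 53.3 and 66.4 FPKM in KO-labelled pachytene libraries, against 56.0, 93.7 and 72.5 FPKM in WT pachytene libraries. At LZ it was at 30.1, 37.4 and 43.3 FPKM in KO-labelled libraries, against 82.5, 61.8 and 55.5 FPKM in WT libraries. The WT pachytene and WT LZ values overlapped, although the summed FPKM of these groups differed several fold. By percentile it stood at 58.2 to 64.8 in KO-labelled pachytene and 64.3 to 73.7 in WT pachytene libraries, against 84.6 to 87.4 in KO-labelled LZ and 86.0 to 88.7 in WT LZ libraries, so that all pachytene libraries were below all LZ libraries. The share of all genes with such a separation by percentile was not counted.

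**Figure D1:**
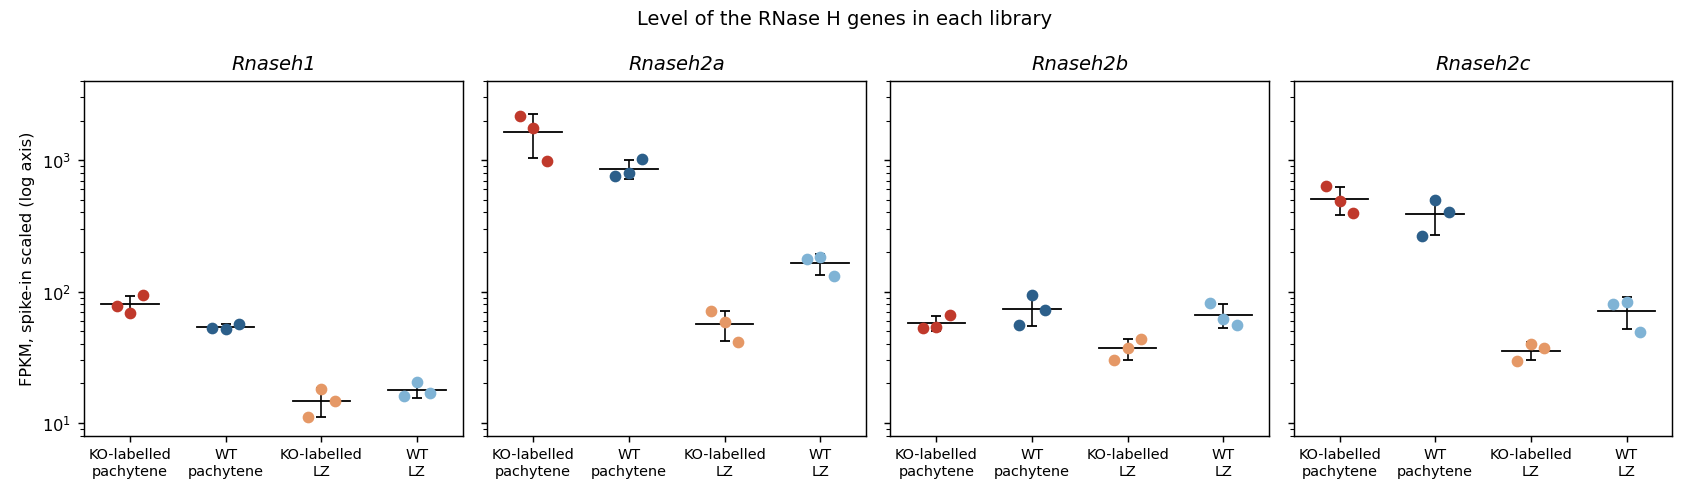
Spike-in-scaled FPKM (log axis) of the 4 RNase H genes in the 12 libraries; points are libraries, lines are means and bars are SD (n = 3). Rnaseh1, Rnaseh2a and Rnaseh2c are higher in all pachytene libraries than in all LZ libraries. Of all tested genes 75.9% in KO-labelled and 83% in WT cells are higher at pachytene without overlap. Rnaseh2b values of WT pachytene (56.0 to 93.7) and WT LZ (55.5 to 82.5) overlap.

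**Figure D2:**
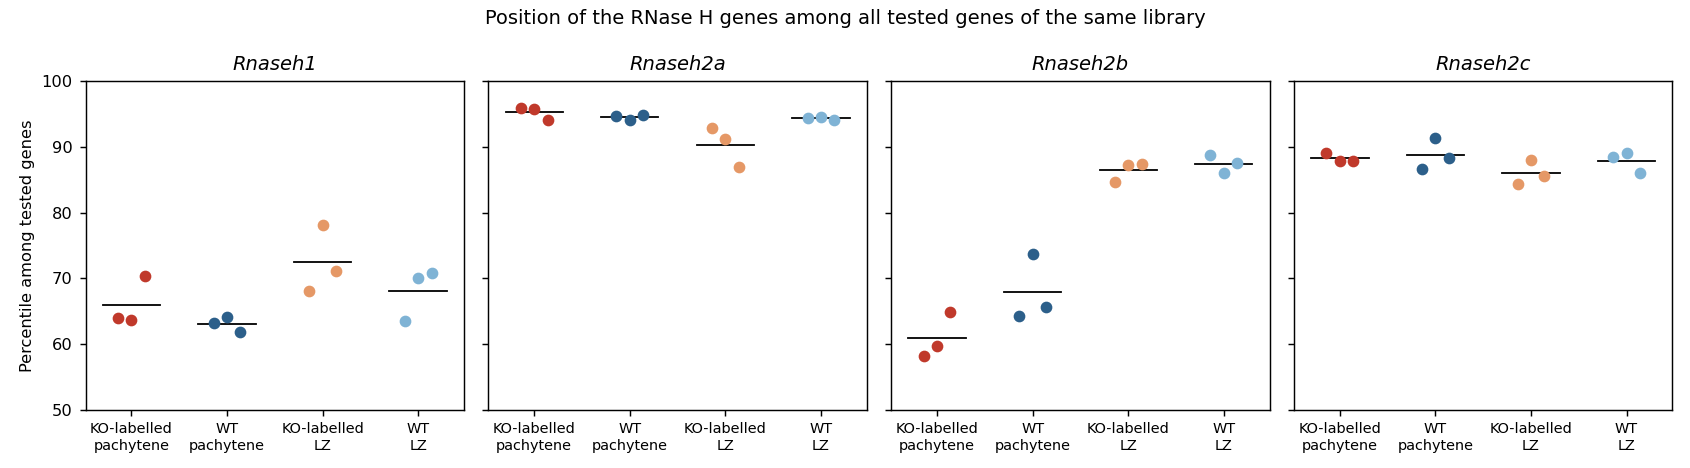
Percentile of each gene among the 15400 tested genes of the same library ; points are libraries and lines are means. Rnaseh2b sits at 58.2 to 73.7 in pachytene libraries and at 84.6 to 88.7 in LZ libraries.

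The order of the 4 levels changed between groups. In WT pachytene libraries the order was Rnaseh2a, Rnaseh2c, Rnaseh2b and Rnaseh1 in each of the 3. In KO-labelled pachytene libraries Rnaseh2b was the lowest in each of the 3, below Rnaseh1. In the 6 LZ libraries Rnaseh1 was always the lowest, Rnaseh2a was the highest in 5, and Rnaseh2b was the highest in KO-labelled replicate 3. The group means of Rnaseh2b and Rnaseh2c were 36.9 ± 6.6 and 35.6 ± 5.4 FPKM in KO-labelled LZ, and 66.6 ± 14.1 and 71.2 ± 19.2 FPKM in WT LZ (SD, n = 3 each), so these neighbours did not differ beyond their spread. Among the RNase H2 subunits alone, Rnaseh2b was the lowest in 6 of 6 pachytene libraries. At LZ it was the lowest in 2 of 6 and Rnaseh2c in the other 4.

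The comparison of pachytene with LZ asks how the RNase H genes change as meiotic prophase advances. In WT cells, Rnaseh1, Rnaseh2a and Rnaseh2c were called higher at pachytene, by log2 changes of 1.55 ± 0.23, 2.39 ± 0.29 and 2.42 ± 0.28 (SE; limma, adjusted p = 2.71e-05, 4.63e-06 and 3.28e-06). Rnaseh2b differed by 0.14 ± 0.24 (limma, adjusted p = 0.596). Thus 3 of 4 members were called higher, where 80.9% of all tested genes were called higher and the median gene differed by 1.64. Relative to that median, Rnaseh1 stood at -0.09, Rnaseh2a at 0.75, Rnaseh2c at 0.78 and Rnaseh2b at -1.5. The change of Rnaseh2b was at percentile 5.25 of the changes of all tested genes.

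In KO-labelled cells, all 4 members were called higher at pachytene, where 76.8% of tested genes were. Rnaseh2a differed by 4.78 ± 0.29, Rnaseh2c by 3.77 ± 0.28, Rnaseh1 by 2.39 ± 0.23 and Rnaseh2b by 0.63 ± 0.24 on the log2 scale (SE; limma, adjusted p = 2.34e-09, 1.66e-08, 2.01e-07 and 0.0285). Against a median of 2.29, these were 2.49 and 1.48 above it for Rnaseh2a and Rnaseh2c, and 0.09 above it for Rnaseh1. Rnaseh2b stood at -1.66 relative to that median, at percentile 19.1 of all changes. Without 1 library at a time, the call of Rnaseh2b was kept in 3 of 6 fits, and lost without KO-labelled LZ replicate 1 or 2 or KO-labelled pachytene replicate 3 (limma, adjusted p = 0.105, 0.0529 and 0.0952).

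The direction of the Rnaseh2b stage difference depended on what the libraries were scaled to. After median-ratio scaling, which sets the typical gene to no change, Rnaseh2b was called lower at pachytene in both genotypes, by -2.29 in KO-labelled cells (limma, adjusted p = 9.09e-06) and by -1.88 in WT cells (limma, adjusted p = 0.000151). Under this scaling 31.7% of genes were called higher and 29.3% lower in KO-labelled cells, and 20.4% higher and 17.7% lower in WT cells. Rnaseh2a was then called higher in KO-labelled cells, by 1.81 (limma, adjusted p = 0.000107), and differed by 0.34 in WT cells (limma, adjusted p = 0.342). Rnaseh2c was called higher in KO-labelled cells, by 0.82 (limma, adjusted p = 0.0113), and differed by 0.38 in WT cells (limma, adjusted p = 0.240). Rnaseh1, higher at pachytene with spike-in scaling, was not called in either genotype after it, at -0.51 in KO-labelled and -0.44 in WT cells (limma, adjusted p = 0.0972 and 0.192), and with each library rescaled to a fixed sum it was called lower, at -1.08 in KO-labelled and -0.70 in WT cells (limma, adjusted p = 0.00236 and 0.0381).

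**Figure D3:**
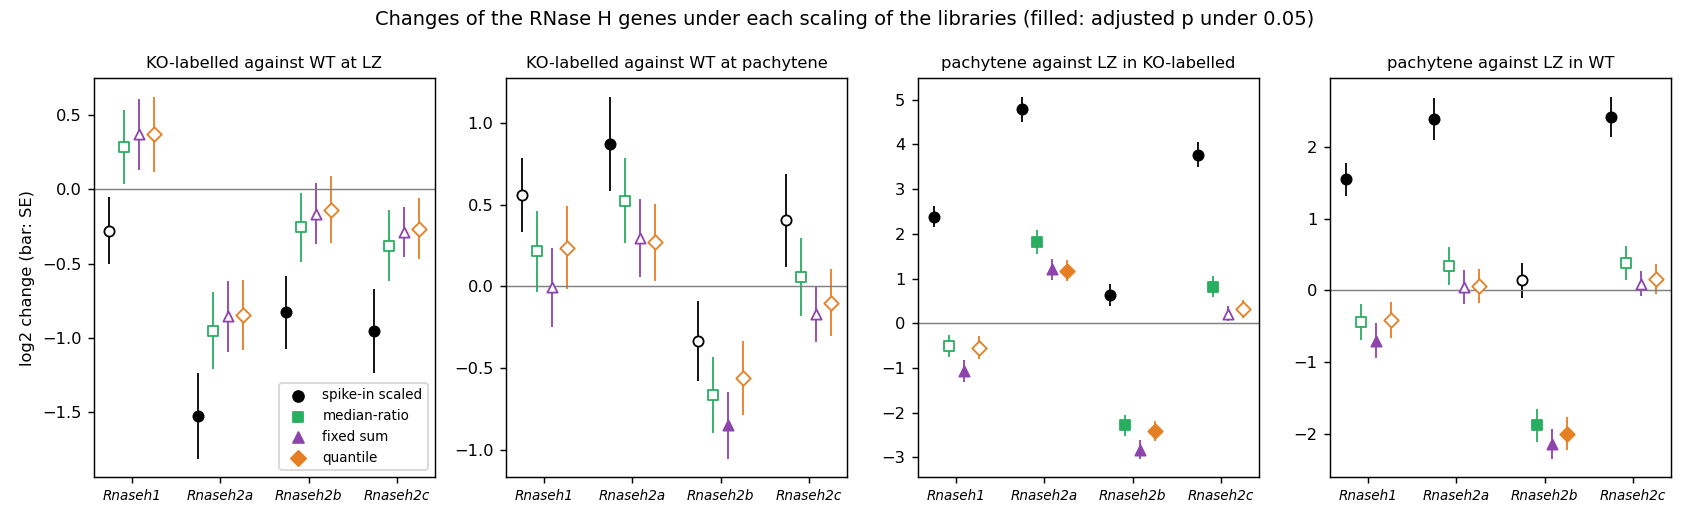
Log2 change (bars: SE) of each RNase H gene in the 4 comparisons under the deposited spike-in scaling and 3 other scalings; filled points have an adjusted p under 0.05 in limma. In the panels for the stages, Rnaseh2b is at 0.63 and 0.14 with spike-in scaling and between -2.83 and -1.88 with the others.

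Ratios within a library need no scaling. The Rnaseh2c/Rnaseh2b ratio was 12.0, 9.14 and 5.92 in KO-labelled pachytene libraries, against 0.983, 1.07 and 0.856 in KO-labelled LZ libraries. In WT cells it was 4.71, 5.29 and 5.54 in pachytene libraries, against 0.979, 1.36 and 0.884 in LZ libraries. The FPKM values of the auxiliary subunits were thus near equal at LZ and several fold apart at pachytene. Reads shared with Kat5, described below, may count in the Rnaseh2c values. The geometric mean ratios were 8.67 in KO-labelled pachytene against 0.967 in KO-labelled LZ cells, and 5.17 in WT pachytene against 1.05 in WT LZ cells. The pachytene ratio was 8.97 times the LZ ratio in KO-labelled and 4.90 times in WT cells. The Rnaseh2a/Rnaseh2b ratio was 41.0, 33.1 and 14.9 in KO-labelled pachytene libraries, against 2.36, 1.56 and 0.956 in KO-labelled LZ libraries. In WT cells it was 13.5, 8.46 and 14.1 at pachytene, against 2.14, 2.98 and 2.35 at LZ, so that the stages did not overlap in either genotype, with folds of 17.9 in KO-labelled and 4.76 in WT cells.

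Among the ratios that involve Rnaseh1, the Rnaseh2b/Rnaseh1 ratio was 0.682, 0.774 and 0.704 in KO-labelled pachytene libraries, against 2.73, 2.05 and 2.92 in KO-labelled LZ libraries. In WT cells it was 1.06, 1.81 and 1.28 at pachytene, against 5.14, 3.01 and 3.31 at LZ. The Rnaseh2a/Rnaseh1 ratio was 28.0, 25.6 and 10.5 in KO-labelled pachytene libraries, against 6.44, 3.20 and 2.79 in KO-labelled LZ libraries. In WT cells it was 14.4, 15.4 and 18.0 at pachytene, against 11.0, 8.97 and 7.79 at LZ. Both ratios separated the stages in both genotypes. The Rnaseh2a/Rnaseh2c ratio separated them in KO-labelled cells, at 3.41, 3.62 and 2.52 at pachytene against 2.40, 1.45 and 1.12 at LZ. It did not in WT cells, at 2.88, 1.60 and 2.54 at pachytene against 2.18, 2.2 and 2.66 at LZ (exact permutation test, two-sided p = 0.9). The Rnaseh2c/Rnaseh1 ratio was 2.54-fold higher at pachytene without overlap in KO-labelled cells, and 1.78-fold higher with overlap in WT cells (exact permutation test, two-sided p = 0.2).

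With 3 against 3 libraries, the exact two-sided permutation test has 20 regroupings and cannot go below 0.1. All 6 ratios in KO-labelled cells and 4 of 6 in WT cells reached that p, with adjusted values of 0.1 and 0.15 over the 6 pairs of each comparison. Most other genes also moved against a member: with Rnaseh2b below the line, 74.3% of genes with values above 0 were higher at pachytene without overlap in KO-labelled cells and 79.7% in WT cells. With Rnaseh1 below the line, 20.2% were lower in KO-labelled and 12.5% in WT cells, the direction of Rnaseh2b, and 38.8% and 35.6% were higher, the direction of Rnaseh2a. With Rnaseh2c below the line, 16.5% were higher in KO-labelled cells. The differences of Rnaseh2b from the other members are thus of a kind that many genes show against it.

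**Figure D4:**
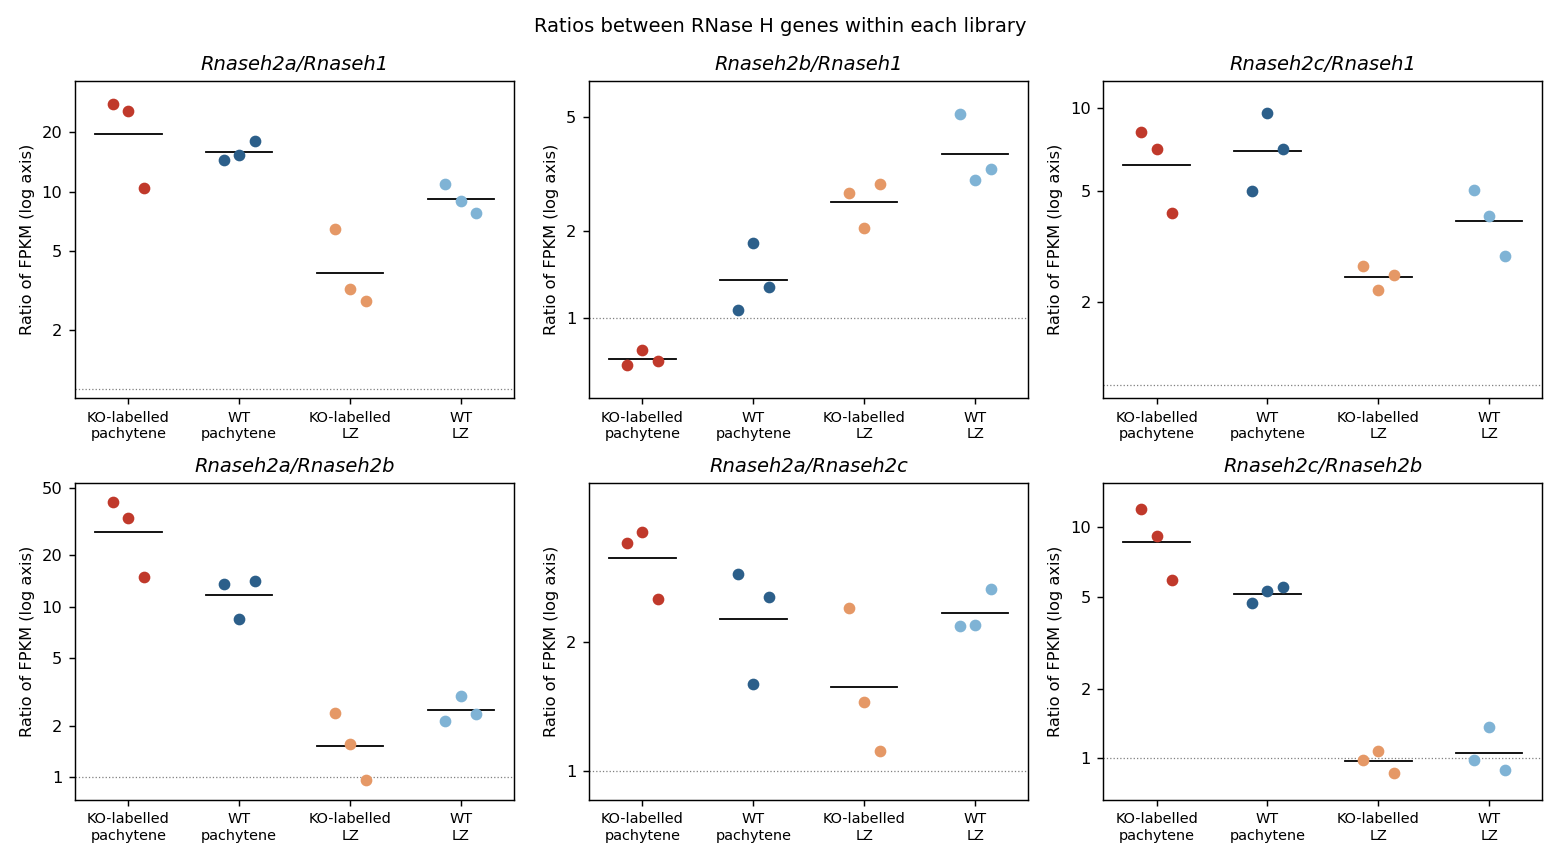
Ratio of FPKM between each pair of RNase H genes within each library (log axis, dotted line at 1); points are libraries and lines are geometric means (n = 3). Rnaseh2c/Rnaseh2b sits between 0.856 and 1.36 in LZ libraries and between 4.71 and 12.0 in pachytene libraries.

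The comparison of genotypes at LZ asks whether the RNase H2 subunits differ where RNase H1 is labelled as missing. All 3 subunits were lower in KO-labelled LZ cells. The log2 change was -1.53 ± 0.29 for Rnaseh2a, -0.83 ± 0.24 for Rnaseh2b and -0.95 ± 0.28 for Rnaseh2c (SE; limma, adjusted p = 0.0151, 0.0428 and 0.0436). In all 3, each KO-labelled library was below each WT library. This made 3 of 4 members called lower, where 12.9% of all tested genes were called lower, 0.136% were called higher and 36.5% were lower without overlap. Relative to the median change of -0.43, Rnaseh2a stood at -1.09, Rnaseh2b at -0.40 and Rnaseh2c at -0.52, and the change of Rnaseh2a was at percentile 4.79 of all tested genes.

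These calls at LZ depended on the setting. After median-ratio scaling 0 of 4 members were called (limma; 1 at an unadjusted p under 0.05), with Rnaseh2a at -0.95 (limma, adjusted p = 0.0929), Rnaseh2c at -0.38 (limma, adjusted p = 0.414) and Rnaseh2b at -0.26 (limma, adjusted p = 0.586), and 1.07% of all genes were called. Without WT LZ replicate 1, WT LZ replicate 2 or KO-labelled LZ replicate 3, 0 members were called, while 3 had an unadjusted p under 0.05. Rnaseh2a then changed by -1.46, -1.43 and -1.32 (limma, adjusted p = 0.0738, 0.0752 and 0.056). Rnaseh2b and Rnaseh2c kept their calls in 1 of 6 such fits, the one without WT LZ replicate 3.

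Relative to Rnaseh1 in the same library, all 3 subunits were also lower in KO-labelled LZ cells without overlap. The Rnaseh2a/Rnaseh1 ratio was 6.44, 3.20 and 2.79 in KO-labelled LZ libraries, against 11.0, 8.97 and 7.79 in WT LZ libraries, 0.421 of the WT ratio. The Rnaseh2b/Rnaseh1 ratio was 0.683 of the WT ratio. The Rnaseh2c/Rnaseh1 ratio was 2.68, 2.2 and 2.50 in KO-labelled LZ libraries, against 5.03, 4.08 and 2.92 in WT LZ libraries, 0.626 of the WT ratio. Each had the smallest p the exact two-sided permutation test allows, 0.1, with adjusted values of 0.2, and 12.6% of genes were lower against Rnaseh1 in this way. Between the subunits the groups overlapped: Rnaseh2a/Rnaseh2b stood at 0.617, Rnaseh2a/Rnaseh2c at 0.673 and Rnaseh2c/Rnaseh2b at 0.917 of the WT ratio (exact permutation tests, two-sided p = 0.3, 0.3 and 0.7).

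At pachytene the genotypes differed in another way. Rnaseh2a was called higher in KO-labelled cells, with a log2 change of 0.87 ± 0.29 (SE; limma, adjusted p = 0.0336). Rnaseh2c was at 0.40 ± 0.28 (limma, adjusted p = 0.250) and Rnaseh2b at -0.34 ± 0.24 (limma, adjusted p = 0.264). Thus 1 of 4 members was called higher, where 24.6% of tested genes were called higher and 14.3% lower. Rnaseh2a was 0.50 above the median change and Rnaseh2b was -0.71 relative to it. The Rnaseh2a call was lost after median-ratio scaling, at 0.52 (limma, adjusted p = 0.185). It was also lost without WT pachytene replicate 1 or 2 or KO-labelled pachytene replicate 1 or 2, with adjusted p of 0.0926 to 0.144 in limma. Of all tested genes 2165, 2179, 1371 and 1348 were called without these libraries in turn, against 5980 with all libraries. With a fixed sum it was Rnaseh2b that was called, lower by -0.85 (limma, adjusted p = 0.0222). In this comparison 13.2% of all genes were called after median-ratio scaling.

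At pachytene the 3 ratios that involve Rnaseh2b separated the genotypes. Rnaseh2b/Rnaseh1 was 0.682, 0.774 and 0.704 in KO-labelled libraries, against 1.06, 1.81 and 1.28 in WT libraries, 0.532 of the WT ratio without overlap. Rnaseh2a/Rnaseh2b was 2.32 times and Rnaseh2c/Rnaseh2b 1.68 times the WT ratio, also without overlap. All 3 had an exact permutation p of 0.1 and an adjusted value of 0.2. The share of genes lower against Rnaseh1 without overlap was 27.3%, and the share higher against Rnaseh2b was 43.7%. The 3 pairs without Rnaseh2b overlapped between the genotypes: Rnaseh2a/Rnaseh1 at 1.24, Rnaseh2c/Rnaseh1 at 0.893 and Rnaseh2a/Rnaseh2c at 1.38 of the WT ratio (exact permutation tests, two-sided p = 0.5, 0.7 and 0.3).

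The difference between the genotype effects at pachytene and at LZ was tested as an interaction. It was 2.40 ± 0.41 for Rnaseh2a and 1.36 ± 0.40 for Rnaseh2c (log2, SE; limma, adjusted p = 0.00493 and 0.0196), so 2 of 4 members were called higher, where 34.9% of tested genes were. It was 0.84 ± 0.32 for Rnaseh1 and 0.49 ± 0.35 for Rnaseh2b (limma, adjusted p = 0.0541 and 0.271). Against the median interaction of 0.72, Rnaseh2a stood 1.68 higher, at percentile 98.8 of all tested genes, and Rnaseh2c 0.64 higher, at percentile 81.1. The Rnaseh2a interaction was called in 12 of 12 fits that left out 1 library and after median-ratio scaling, at 1.48 (limma, adjusted p = 0.0399), where 2.42% of genes were called higher. It was not called after rescaling to a fixed sum, at 1.15 (limma, adjusted p = 0.0652), or after quantile normalisation, at 1.12 (limma, adjusted p = 0.0902). The Rnaseh2c interaction was not called under any of the 3 other scalings, nor without WT LZ replicate 2 or KO-labelled pachytene replicate 1. Without these libraries 4073 and 3749 of all tested genes were called for the interaction, against 5919 with all libraries. For reading the members' calls under other settings, the shares of all genes called in either direction with a fixed sum and after quantile normalisation were 1.8% and 1.22% between genotypes at LZ, 9.45% and 8.1% between genotypes at pachytene, 59.8% and 58.7% between stages in KO-labelled cells, 38.5% and 38% between stages in WT cells, and 6.18% and 2.34% for the interaction. Without a filter and with a pseudocount of 5 they were 0% and 7.19% at LZ, 17.6% and 50.3% at pachytene and 21.5% and 41.8% for the interaction, and with a filter at 5 the last was 50.3%. At LZ they were 0% with the LZ groups fitted alone and 13.6% with the replicate number as a block.

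Neighbouring genes limit what the counts of the subunits can say. In the GENCODE annotation of GRCm38, Rnaseh2c (chromosome 19, 5601873 to 5607019, plus strand) shares 4006 bases with Kat5 on the opposite strand, which encodes the acetyltransferase TIP60. Rnaseh2b (chromosome 14, 62292589 to 62372992, plus strand) shares 459 bases with Dleu7, and Rnaseh2a (chromosome 8, 84956610 to 84969767, minus strand) shares 1756 bases with the gene model Gm49661 on the same strand and 181 with Prdx2, a peroxiredoxin gene, on the opposite strand. Rnaseh1 (chromosome 12, 28649602 to 28659589, plus strand) has no overlapping gene. Whether reads were counted by strand is not given in the sources used here, so reads in the shared stretches cannot be told apart, those of Gm49661 even with strand, and the subunit levels are uncertain to that extent. Kat5 averaged 259 FPKM in KO-labelled pachytene, 128 in WT pachytene, 9.20 in KO-labelled LZ and 18.6 in WT LZ cells. These means differed in the same direction as those of Rnaseh2c in each comparison of genotypes or stages. The part of Kat5 in the Rnaseh2c values and ratios was not tested. Prdx2 averaged 338 FPKM in KO-labelled pachytene, 445 in WT pachytene, 95.7 in KO-labelled LZ and 94.2 in WT LZ cells. Dleu7 averaged 0.44 FPKM in KO-labelled pachytene, 2.01 in WT pachytene, 0 in KO-labelled LZ and 0.25 in WT LZ cells. In single libraries it was at 0 to 4.31 FPKM, against 30.1 to 93.7 FPKM for Rnaseh2b.

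Genes around the enzymes were followed in 5 lists, and their counts stand beside shares of all tested genes. In KO-labelled against WT cells 12.9% of all tested genes were called lower at LZ. At pachytene 24.6% were called higher and 14.3% lower. In WT cells 80.9% were called higher at pachytene than at LZ. After median-ratio scaling 1.07% were called at LZ and 13.2% at pachytene, and between WT stages 20.4% were higher and 17.7% lower. Among 19 tested genes of ribonucleotide excision repair and Okazaki fragment processing, the pathway that RNase H2 opens, 0 were called higher and 2 lower in KO-labelled LZ cells, with a median log2 change of -0.67 against -0.43 for all genes. The 2 were Pole3, a subunit of the leading-strand polymerase, at -0.86 (142.6 ± 14.1 FPKM in KO-labelled and 261.8 ± 50.2 in WT cells), and Rfc2, a subunit of the loader of PCNA, at -0.78 (75.9 ± 1.5 FPKM in KO-labelled and 131.6 ± 14.2 in WT cells). After median-ratio scaling 0 were called at LZ (limma; 1 at an unadjusted p under 0.05), with Pole3 at -0.27 and Rfc2 at -0.20 (limma, adjusted p = 0.433 and 0.522). At pachytene 9 were called higher and 2 lower. Fen1, the flap nuclease, was lower by -1.66 ± 0.29 (SE), at 5.23 ± 1.74 FPKM in KO-labelled and 18.2 ± 0.6 in WT cells (SD, n = 3 each; limma, adjusted p = 0.0035). Pold4 was lower by -0.99, and Pold2, another subunit of DNA polymerase delta, higher by 0.93 (limma, adjusted p = 0.0373 and 0.0207). After median-ratio scaling, 0 were called higher and 3 lower at pachytene, and Fen1 stayed called at -1.72 (limma, adjusted p = 0.00203). In WT cells 16 of 19 were called higher at pachytene than at LZ, Pcna among them at 1984 ± 315 FPKM at pachytene against 301.0 ± 28.7 at LZ, but after median-ratio scaling 2 were called higher and 8 lower.

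Of 27 tested factors that resolve RNA:DNA hybrids by other means, such as helicases, 0 were called higher and 1 lower in KO-labelled LZ cells, and 14 higher and 1 lower in KO-labelled pachytene cells. Of all tested genes 12.9% were called lower at LZ, and 24.6% higher and 14.3% lower at pachytene. The one lower at LZ was Thoc6, a part of the THO complex that packs nascent RNA, at -0.77. It was not called after median-ratio scaling, at -0.25 (limma, adjusted p = 0.530), where 0 of the 27 were (2 at an unadjusted p under 0.05). At pachytene Tdrd3, which works with topoisomerase 3B, was higher by 1.18 (218.6 ± 32.6 FPKM in KO-labelled and 97.2 ± 24.8 in WT cells). Thoc5 was higher by 0.95, and Atad5, which unloads PCNA, was lower by -0.92. The Atad5 level was low, at 1.75 ± 0.90 FPKM in KO-labelled and 4.06 ± 1.00 in WT cells. Median-ratio scaling left 1 higher and 1 lower at pachytene. Against 80.9% of all tested genes, 23 of the 27 were called higher at pachytene than at LZ in WT cells, with a median of 2.21. Among them were Thoc7, another part of the THO complex, at 2783 ± 536 FPKM at pachytene against 192.6 ± 36.8 at LZ, and Tdrd3, at 97.2 ± 24.8 FPKM at pachytene against 10.4 ± 2.6 at LZ (log2 changes of 3.84 and 3.10). After median-ratio scaling 9 of the 27 were called higher and 6 lower in that comparison.

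Of the 10 tested genes of Aicardi-Goutieres syndrome and nucleic acid sensing, the members excluded, 0 were called in KO-labelled LZ cells (limma; 1 had an unadjusted p under 0.05). Irf3, the transcription factor of the interferon response, was at 18.9 ± 0.9 FPKM in KO-labelled and 21.4 ± 5.9 in WT LZ cells, and Samhd1, a dNTP hydrolase, at 4.61 ± 0.47 FPKM in KO-labelled and 7.07 ± 0.94 in WT LZ cells. At pachytene 1 was called higher: Irf3, at 238.2 ± 19.1 FPKM in KO-labelled and 151.4 ± 17.2 in WT cells, which was not called after median-ratio scaling (log2 change 0.31; limma, adjusted p = 0.135). In WT cells all 10 were called higher at pachytene than at LZ, where 80.9% of all tested genes were. Their median of 1.21 was below that of all genes. Irf3 was higher by 2.79, the cytosolic DNA sensor listed as E330016A19Rik (Cgas) by 2.68, and the RNA sensor Ddx58 by 2.30. The Ddx58 level was low, at 6.61 ± 1.52 FPKM at pachytene and 0.53 ± 0.07 at LZ. After median-ratio scaling 3 were called higher and 2 lower.

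RNase H1 also acts in mitochondria. In KO-labelled LZ cells 12.9% of all tested genes were called lower. Of 15 tested genes that maintain or transcribe mitochondrial DNA, 0 were called higher there and 1 lower. This was Tfam, the protein that packs mitochondrial DNA, at 8.66 ± 2.34 FPKM in KO-labelled and 27.7 ± 12.5 in WT cells (log2 change -1.52; limma, adjusted p = 0.0176). At pachytene 3 were called higher and 2 lower, where 24.6% of all tested genes were called higher and 14.3% lower. Tfam was again lower, at 16.4 ± 4.3 FPKM in KO-labelled and 45.0 ± 2.6 in WT cells (log2 change -1.43; limma, adjusted p = 0.00939), and stayed called after median-ratio scaling at pachytene but not at LZ (limma, adjusted p = 0.00494 and 0.0954). Top1mt, the mitochondrial topoisomerase, was lower by -1.60 and Tfb1m, a methylase of mitochondrial ribosomal RNA, higher by 0.86. Against 80.9% of all tested genes, 14 of the 15 were called higher at pachytene than at LZ in WT cells. Among them were Polg, the mitochondrial DNA polymerase, by 2.49, and Lig3 and Slc25a4 by 2.44 and 2.18. After median-ratio scaling 1 was called higher and 6 lower.

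Of 27 tested genes of DNA replication and S phase, in which RNase H2 removes ribonucleotides and RNA primers, 0 were called higher and 6 lower in KO-labelled LZ cells. Of all tested genes 12.9% were called lower there. Rpa1, which coats single-stranded DNA, was lower by -1.13, and the licensing factors Cdc6 and Cdt1 by -1.02 and -0.98. The Cdc6 level was low, at 1.85 ± 0.71 FPKM in KO-labelled and 4.71 ± 0.89 in WT LZ cells. After median-ratio scaling 0 were called at LZ (limma; 4 at an unadjusted p under 0.05). At pachytene 6 were called higher and 5 lower, where 24.6% of all tested genes were called higher and 14.3% lower. Mcm2, a subunit of the replicative helicase, was at 2.51 ± 2.04 FPKM in KO-labelled and 21.4 ± 5.1 in WT cells (log2 change -2.91; limma, adjusted p = 0.0021). Tk1, thymidine kinase, was lower by -2.44 and Cdt1 by -1.59. The Tk1 level was low, at 1.36 ± 1.96 FPKM in KO-labelled and 9.42 ± 2.14 in WT pachytene cells. After median-ratio scaling 0 were called higher and 5 lower. The 10 spermatogonia markers, all found in the table, moved in the same direction, at 0.000802% to 0.00259% of the summed FPKM in KO-labelled and 0.0102% to 0.0160% in WT pachytene libraries, with Ret under 1 FPKM in KO-labelled ones and 0 of the 10 at 0. Their part in these changes was not tested. In WT cells 18 of 27 were called higher at pachytene than at LZ, where 80.9% of all tested genes were. Among them were Dut, the dUTPase, by 3.40, and Gins1 and Gins4 of the replicative helicase by 3.16 and 2.61. After median-ratio scaling 3 were called higher and 15 lower.

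The genes whose profile over the 12 libraries was most like that of each member were found among 9381 genes with a mean of at least 5. Likeness was the root mean square difference of log2 profiles, each centred on its own mean. The nearest genes to Rnaseh1 were AI316807, Mettl5, Tmco3, Ccdc76 and Shc1, at 0.155 to 0.174, where the median gene was at 0.655. Those nearest to Rnaseh2a were Tex22, Ubxn10, Exosc3, Gsg2 and Slc25a10, at 0.131 to 0.182 (median 0.815). Those nearest to Rnaseh2b were Unc119b, Nudt19, AI846148, Ostf1 and Gipc1, at 0.179 to 0.206 (median 1.20), and those nearest to Rnaseh2c were Ap2s1, Fam92a, Fam162a, Tceb2 and Mrps11, at 0.122 to 0.138 (median 0.625). Between the members, Rnaseh2a and Rnaseh2c were the nearest pair at 0.478 and Rnaseh2a and Rnaseh2b the farthest at 1.73. Rnaseh2b stood at 1.40 to Rnaseh2c and at 0.910 to Rnaseh1, and Rnaseh1 at 0.697 to Rnaseh2c and 1.02 to Rnaseh2a. The profiles share the same 12 libraries and stages, so these distances are a description.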

How the data were processed

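Libraries were made from amplified cDNA of polyadenylated RNA and read from both ends, per the labels' protocols. TopHat2 2.1.1, Cufflinks 2.2.1 and build mm9 are named in the submitters' processing notes. The authors deposited FPKM per gene, scaled by ERCC spike-ins per the table's name. The annotation and the scaling formula are not given in the sources used here. The 4 unnamed columns were not used. Genes at 1 or more in at least 3 libraries (15400 of 23235) were tested as log2(FPKM + 1), so folds of low genes are understated, in limma 3.58.1 (R 4.3.3) with 1 mean per group over all 12 libraries and a variance trend. Calls used a threshold of 0.05 on two-sided p-values adjusted by Benjamini-Hochberg over all tested genes. The script was tested on simulated data. Within-library ratios, with no pseudocount, were compared by exact two-sided permutation tests. Groups came from genotype and stage labels. The members, lists and tests were chosen with earlier results of these data known. Named were the members, up to 3 called genes with the largest change from each of 5 lists (up to 2 of the highest level if none was called), and the 5 nearest genes per member without predicted gene models. A gene that this rule also names is not reported here. Marker lists of 8 cell types were summed. Promoters are from RefSeq GRCm38.p6 and neighbours from GENCODE GRCm38, later builds than mm9. Depth is unknown and so no counting intervals are given. Alternatives were other scalings, pseudocounts, filters, samples, a replicate block and leaving out each library.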

Additional observations from a re-analysis of the deposited data

Results flagged for a closer look

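The genotype effect of 2 members differed between the stages by the interaction test. For Rnaseh2a the KO-labelled minus WT change at pachytene exceeded that at LZ by 2.40 on the log2 scale (0.87 at pachytene and -1.53 at LZ; limma, adjusted p = 0.00493). For Rnaseh2c the corresponding difference was 1.36 (0.40 at pachytene and -0.95 at LZ; limma, adjusted p = 0.0196). The median gene had an interaction of 0.72, and 34.9% of all tested genes were called higher. After median-ratio scaling the interactions of Rnaseh2a and Rnaseh2c were 1.48 and 0.44 (limma, adjusted p = 0.0399 and 0.461), and 2.42% of all genes were called higher. No group had the 4 libraries that a test for a single deviating library needs.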

How the results depend on the processing

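Values in threes order the other scalings as median ratio, fixed sum and quantile. In KO-labelled against WT cells at LZ, 3 members were called lower with spike-in scaling, and 0, 0 and 0 under the 3 others (1 at an unadjusted p under 0.05 in each), 0 without a filter, 0 with the LZ groups fitted alone (3 at an unadjusted p under 0.05 in both) and 1 with a pseudocount of 5. Leaving out 1 library gave 0 to 3. At pachytene 1 was called higher, against 0 after median-ratio scaling, 0 after quantile normalisation, 0 without a filter (1, 1 and 2 unadjusted), 1 lower (Rnaseh2b) with a fixed sum and 2 higher with a pseudocount of 5, and leaving out 1 library gave 0 to 1. Between stages, 4 were called in KO-labelled cells, all higher, against 3, 3 and 2, with 3 to 4 when 1 library was left out. Under each of the 3 other scalings Rnaseh2a was among those called higher and Rnaseh2b was called lower. Rnaseh2c was also called higher after median-ratio scaling, and Rnaseh1 called lower with a fixed sum. In WT cells 3 were called, all higher, against 1, 2 and 1, all lower. For the interaction 2 were called, against 1, 0 and 0 (1, 2 and 1 unadjusted). The 2 unadjusted with a fixed sum were Rnaseh2a, higher by 1.15, and Rnaseh2b, lower by -0.69. With a pseudocount of 5, without a filter or with a filter at 5, 3 were called, where Rnaseh1 was added (limma, adjusted p = 0.043, 0.0465 and 0.0436). When 1 library was left out, 1 to 3 were called.

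Signs reversed under the 3 scalings for Rnaseh1 at LZ (0.28, 0.37 and 0.37), between stages in KO-labelled (-0.51, -1.08 and -0.55) and WT cells (-0.44, -0.70 and -0.41), and in the interaction (-0.070, -0.38 and -0.14). They reversed for Rnaseh2b between stages in KO-labelled (-2.29, -2.83 and -2.42) and WT cells (-1.88, -2.14 and -2.0, and -0.043 to 0.32 when 1 library was left out, the negative value without WT pachytene replicate 2), and in the interaction (-0.41, -0.69 and -0.42). At pachytene Rnaseh1 reversed with a fixed sum (-0.0052), and Rnaseh2c with a fixed sum (-0.17) and after quantile normalisation (-0.10). The causes of these differences were not tested beyond the scalings themselves.

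Ratios without overlap numbered 16 of 24, and 16 to 18 when 1 library was left out. All genes called at LZ numbered 2013, against 165, 277 and 188 under the 3 scalings, 1108 with a pseudocount of 5, 0 without a filter and 0 with the LZ groups alone (5345 and 4682 unadjusted), and 4 to 2936 without 1 library. At pachytene they numbered 5980, against 2032, 1456 and 1247, and 1348 to 6952 without 1 library. Between stages in WT cells they numbered 12530, against 5876, 5932 and 5845, and for the interaction 5919, against 1051, 952 and 360. Same-numbered libraries of different groups had deviations correlated at -0.167 to 0.259, over 0.1 in 7 of 18 pairs, against 5 of 36 pairs with different numbers, and a library correlated best with its own number in 19 of 36 cases. Same-numbered pairs were thus over 0.1 more often, but not every one was. What the numbers stand for is not given in the sources used here. The main fits did not treat the libraries as paired, and the ratio tests were run unpaired only. With the replicate block, 2 members were called at LZ in place of 3, since Rnaseh2b had an adjusted p of 0.0549 in limma, and no other call changed. Depth is unknown, and 3 libraries a group limit every p from permutation to at least 0.1.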
